A study of Mus musculus with 24 samples.

Results

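The SoxF group of transcription factors consists of Sox7, Sox17 and Sox18, and every probe set that the array's annotation gives to these genes was followed through all 24 arrays of the study. They are 3 of 18193 named genes and 5 of 45101 probe sets. Sox17 is read by 1421657_a_at and 1429177_x_at, Sox7 by 1416564_at and 1432495_at, and Sox18 by 1449135_at. None of these probe sets carries a second gene symbol. By Affymetrix convention a probe set ending in _a_at reads several transcripts of a single gene, and one ending in _x_at holds some probes that can also bind other sequences.

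The samples were cultures of mouse retinal endothelial cell lines in 8 groups of 3 arrays. Donor animals were adults of both genders (mixed gender), with a C57Bl6/129 mixed background. Cells of both genotypes carried the Immorto-mouse transgene, a temperature-sensitive SV40 large T antigen under the H2Kb promoter. They were passaged at 33 °C with interferon gamma, and RNA was taken at 37 °C without it. The genotypes were Fz4-/-, which lacks frizzled-4, the receptor of the secreted ligand Norrin, and wild type. Each genotype was grown on gelatin, on Matrigel for 6 hours after 24 hours in 1% serum, with human HEK293 control cells, or with HEK293 cells that stably make Norrin. The labels do not say whether the gelatin cultures were starved, how many lines there were, or whether replicates were separate cultures. The p-values therefore measure only the spread between these arrays.

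SoxF proteins bind DNA through the HMG box that all Sox proteins share, and they activate genes of the endothelium. In mice, Sox7, Sox17 and Sox18 overlap in function during the growth of blood vessels. Sox17 is known for its role in arteries and in the embryonic endoderm, and Sox18 for switching on Prox1 in the first lymphatic endothelial cells. Frizzled-4 with its co-receptors passes the Norrin signal to beta-catenin in the endothelium of the retina, and mice without it form an incomplete retinal vasculature.

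Fzd4 itself fitted its labels. Its probe set 1419301_at averaged 5.06 log2 in Fz4-/- and 8.70 in wild type cells on gelatin, and 2.82 against 6.23 log2 with control HEK293 cells. Mouse Ndp, which encodes Norrin, averaged between 2.18 and 3.23 log2 in every group and gave no check on the Norrin label. All 16 of a list of endothelial markers lay above the array median on all 24 arrays, while none of 6 epithelial markers did so in all 3 arrays of any single-culture group. The log2 values fall into 3 sets with different medians: 5.02 to 5.10 in the single cultures, 3.21 to 3.31 in Fz4-/- co-cultures and 3.44 to 3.52 in wild type co-cultures. Genotype and array set therefore cannot be told apart in the co-cultures, where RNA was also a mixture of mouse and human. In 6 of 8 groups replicate 1 lay apart from replicates 2 and 3.

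On gelatin, Sox17 was the SoxF gene with the largest difference between the genotypes. Its probe set 1421657_a_at read 3.69, 3.85 and 4.17 log2 in Fz4-/- cells, against 8.48, 8.77 and 8.91 log2 in wild type cells. The other, 1429177_x_at, read 2.52, 2.79 and 2.63 log2 in Fz4-/- cells, against 8.84, 9.18 and 9.15 log2 in wild type cells. No array of one genotype came near an array of the other on either probe set.

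Sox17 fell in Fz4-/- cells by 4.82 ± 0.18 log2 (SE, n = 3 per group) on 1421657_a_at, a level 28.2-fold lower than in wild type (limma adjusted p = 1.11e-08). On 1429177_x_at it fell by 6.41 ± 0.21 log2 (limma adjusted p = 2.95e-09). By the size of the difference these were the sixteenth and the third of all probe sets tested on gelatin. In the Fz4-/- arrays 1429177_x_at ranked between the percentiles 3.89 and 11.1 of all values, close to the lowest readings. The direction of this difference is therefore surer than its size, and no fold is given. The percentiles of 1421657_a_at there were 30.2 to 39.0. On gelatin 10.7% of probe sets passed the threshold of an adjusted p below 0.05 in either direction, 5.08% lower and 5.61% higher in Fz4-/-.

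On Matrigel the separation was of like size. Fz4-/- cells read 4.05, 4.52 and 4.28 log2 on 1421657_a_at, against 8.50, 9.06 and 8.85 log2 in wild type. On 1429177_x_at they read 3.59, 2.55 and 3.25 log2, against 9.15, 9.14 and 9.12 log2 in wild type. On the second probe set the SD was 0.53 log2 over the Fz4-/- arrays and 0.01 log2 over the wild type arrays. Sox17 fell in Fz4-/- by 4.52 log2 on 1421657_a_at, or 23.0-fold (limma adjusted p = 1.80e-08), and by 6.00 log2 on 1429177_x_at (6.40e-09). The Fz4-/- arrays ranked between the percentiles 5.43 and 28.1 on the second probe set, so the size of that difference is again less sure than its direction. The share of probe sets past the threshold on Matrigel was 11.4%, with 5.88% lower and 5.52% higher in Fz4-/-. In both cultures all 3 pairs of equally numbered arrays gave a lower Sox17 value in Fz4-/-.

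**Figure D1:**
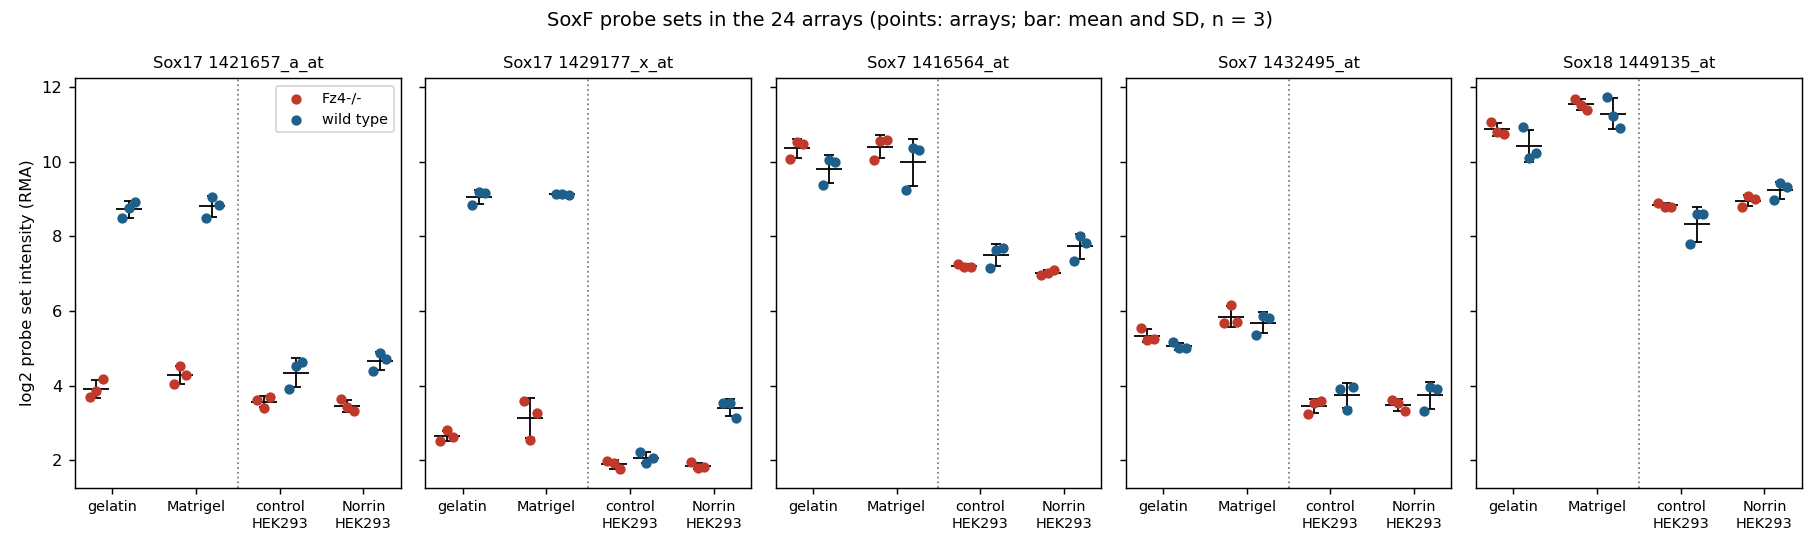
Log2 RMA intensity (vertical axis) of the 5 SoxF probe sets in each culture (horizontal axis). Points are single arrays of Fz4-/- (red) and wild type cells (blue), bars give the mean and SD (n = 3), and a dotted line parts single cultures from co-cultures, whose arrays have other medians. Both Sox17 probe sets lie between 2.52 and 4.52 in Fz4-/- single cultures and between 8.48 and 9.18 in wild type ones.

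Sox7 and Sox18 did not share that pattern. Sox7, which is expressed in endothelium of many vessel types, read 10.08, 10.53 and 10.47 log2 in Fz4-/- cells on gelatin on 1416564_at, against 9.38, 10.06 and 9.98 log2 in wild type. The arrays of the genotypes did not overlap, and the difference was 0.55 ± 0.29 log2 (SE, n = 3 per group, 95% interval -0.07 to 1.18, limma adjusted p = 0.293). Replicate 1 was the lowest array in both genotypes. With the replicate number as a block, the same 0.55 passed (limma adjusted p = 0.0111), and so did 0.42 on Matrigel (0.0402). Deviations of equally numbered arrays correlated positively between the genotypes. Yet only 3 of 6 arrays on gelatin, and 5 of 6 on Matrigel, correlated best with their own number. The blocked fits also called more of all probe sets, 17.1% on gelatin and 18.2% on Matrigel.

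On Matrigel 1416564_at read 10.05, 10.57 and 10.59 log2 in Fz4-/- cells, against 9.26, 10.37 and 10.32 log2 in wild type. The second Sox7 probe set, 1432495_at, lay far lower on the arrays, near the array medians. It read 5.55, 5.23 and 5.24 log2 in Fz4-/- cells on gelatin, against 5.17, 5.0 and 5.01 log2 in wild type. Its difference was 0.28 ± 0.16 log2 on gelatin (limma adjusted p = 0.363) and 0.17 on Matrigel (0.604), with arrays that overlapped on Matrigel but not on gelatin.

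Sox18 had high values in all groups, between the percentiles 94.0 and 98.8 of each array. It read 11.06, 10.80 and 10.75 log2 in Fz4-/- cells on gelatin, against 10.92, 10.11 and 10.24 log2 in wild type. The arrays overlapped because wild type replicate 1 was high, and the difference of 0.45 ± 0.23 log2 did not pass (95% interval -0.05 to 0.94, limma adjusted p = 0.284). It passed with the replicate number as a block (limma adjusted p = 0.0377), and without replicate 1 of both genotypes at 0.60 log2 (0.0104). On Matrigel Sox18 read 11.70, 11.53 and 11.39 log2 in Fz4-/- cells, against 11.74, 11.23 and 10.90 log2 in wild type, a difference of 0.25 log2 (limma adjusted p = 0.579).

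The other Sox genes give a comparison within the family. None of 17 measured Sox genes outside the SoxF group, each read by its probe set of highest mean, passed between the genotypes on gelatin or on Matrigel by limma. In each culture 1 had an unadjusted p under 0.05. Over all probe sets 10.7% passed on gelatin and 11.4% on Matrigel, so the lack of a call sets these genes little apart. Only 7 of the 17 lay above the array median in all 3 arrays of each single-culture group. Their differences ran from -0.38 to 0.32 log2 on gelatin, with a median of -0.03 log2 beside -0.0040 log2 over all genes, and their median on Matrigel was 0.06 log2.

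**Figure D2:**
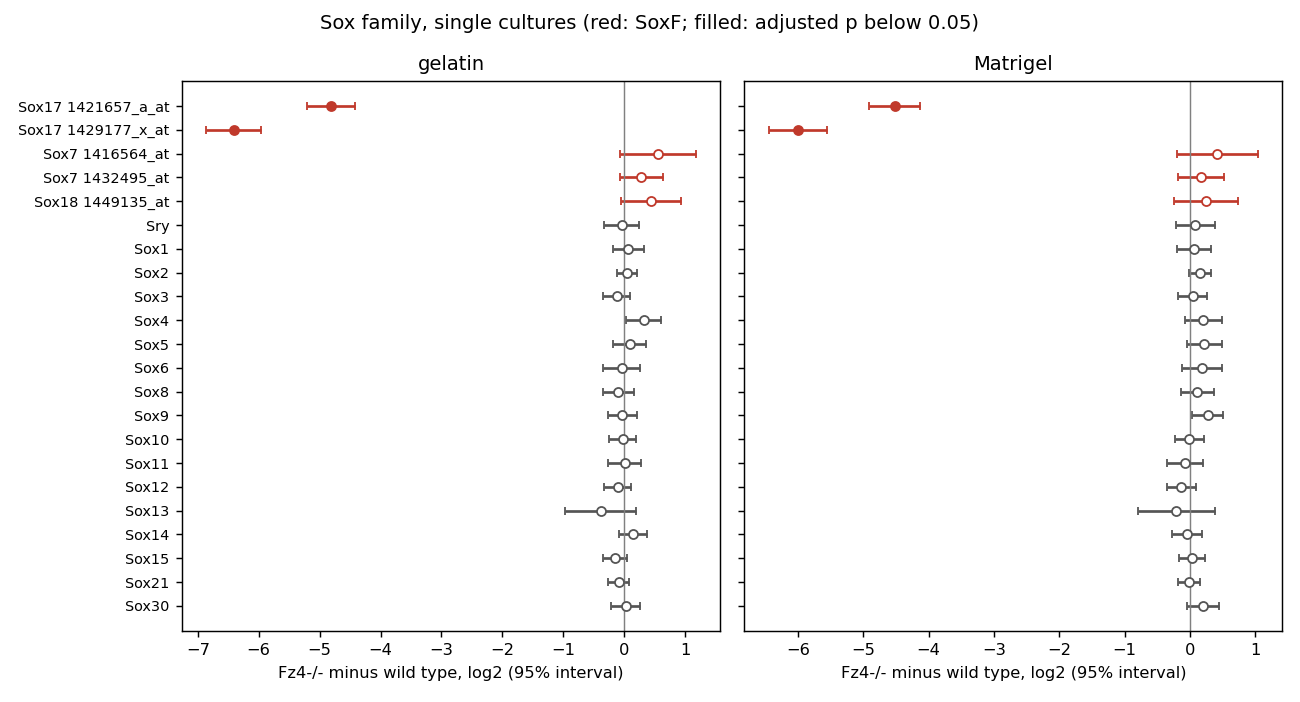
Difference Fz4-/- minus wild type in log2 with its 95% interval (horizontal axis) for SoxF probe sets (red) and 17 other Sox genes (grey), on gelatin at left and Matrigel at right. Filled points passed an adjusted p of 0.05, and the 2 Sox17 probe sets, at -4.82 and -6.41 on gelatin, are the only filled points among those drawn.

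Neighbouring genes were read to see whether the Sox17 difference extended along the chromosome, a comparison chosen after the values were seen. In the RefSeq annotation Sox17 lies between Rp1, a photoreceptor gene, and Mrpl15, a mitochondrial ribosomal protein gene. Rp1 differed by -0.10 log2 on gelatin (limma adjusted p = 0.726) and 0.09 log2 on Matrigel (0.728). Mrpl15 differed by 0.13 log2 on gelatin (0.548) and 0.16 log2 on Matrigel (0.400). Levels of these neighbours are not given, and a gene not expressed in these cells could not show a fall. The reading therefore does not decide how far the Sox17 difference extended. In the co-cultures, where Sox17 was also lower in Fz4-/- on at least 1 probe set, Rp1 fell by 0.60 log2 with control HEK293 cells (limma adjusted p = 0.000284) and by 0.64 log2 with Norrin HEK293 cells (0.000144). Mrpl15 differed there by -0.15 log2 with control cells (0.232) and 0.10 log2 with Norrin cells (0.419). Over all probe sets 34.8% were lower in Fz4-/- with control cells and 35.6% with Norrin cells. Neighbours of Sox7 and Sox18 fell as well with control cells, Pinx1 by 0.60 log2 (limma adjusted p = 0.000665) and Prpf6 by 0.77 log2 (0.000766). Their other neighbours, 4930578I06Rik (0.456) and Tcea2 (0.594), did not pass there.

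In the co-cultures the whole array of values shifted between the genotypes, by a median of -0.19 log2 (Fz4-/- minus wild type) with control HEK293 cells and -0.21 log2 with Norrin HEK293 cells. With control cells 45.5% of probe sets passed in either direction, 34.8% lower and 10.8% higher in Fz4-/-, so a call there sets a probe set little apart. Mouse endothelial RNA and its share of the mixture cannot be told apart in these bulk samples, nor can fewer cells and less RNA per cell.

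With control HEK293 cells Sox17 was low in both genotypes. On 1429177_x_at it read 1.97, 1.92 and 1.76 log2 in Fz4-/- co-cultures, against 2.22, 1.92 and 2.05 log2 in wild type co-cultures. Both sets of arrays lay below the percentile 9.26 of their array, and the difference of -0.18 ± 0.12 log2 did not pass (limma adjusted p = 0.244) and was 0.01 log2 after centring each array on its median.

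The other Sox17 probe set still separated the genotypes there. It read 3.60, 3.41 and 3.70 log2 in Fz4-/- co-cultures, against 3.90, 4.53 and 4.62 log2 in wild type co-cultures, with no overlap. It fell by 0.78 ± 0.17 log2 in Fz4-/- (limma adjusted p = 0.00171), and by 0.58 log2 with centred arrays (0.0177).

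Wild type values of Sox17 in co-culture and on gelatin are given side by side as levels. Relative to the array median, 1429177_x_at averaged -1.42 log2 in wild type co-cultures with control cells, against 4.02 log2 in wild type cells on gelatin. On the same scale 1421657_a_at averaged 0.86 log2 in wild type co-cultures with control cells, against 3.69 log2 on gelatin. The mean of the 16 endothelial markers was 3.22 log2 with control cells, against 5.35 log2 on gelatin. Fzd4 was at 2.75 log2 with control cells and 3.67 log2 on gelatin, and Sox18 at 4.84 log2 with control cells and 5.39 log2 on gelatin. These are descriptions with no test, since the arrays of single cultures and co-cultures have different distributions and the co-cultures hold human RNA.

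Sox18 was higher in Fz4-/- with control HEK293 cells. It read 8.89, 8.80 and 8.80 log2 in Fz4-/- co-cultures, against 7.78, 8.60 and 8.60 log2 in wild type co-cultures. The arrays did not overlap, and the rise of 0.50 ± 0.18 log2 passed (limma adjusted p = 0.0320). It rested on wild type replicate 1, without which it was 0.23 log2 (0.171), and it also lost the call without any single Fz4-/- control array (0.0636 to 0.0891). Endothelial markers moved with it. Of the 16, 12 were higher and 1 was lower in Fz4-/-, their mean level was 7.54 to 7.69 log2 in Fz4-/-, against 6.52 to 6.82 log2 in wild type, and their summed level 12.2 to 12.3 log2 in Fz4-/-, against 11.2 to 11.6 log2 in wild type. Relative to the mean of these markers, Sox18 fell by 0.40 log2 in Fz4-/- (limma adjusted p = 0.0177), on a scale that called 94.9% of all probe sets. Its direction depended on the scale.

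Sox7 on 1416564_at read 7.26, 7.19 and 7.17 log2 in Fz4-/- co-cultures with control cells, against 7.15, 7.65 and 7.69 log2 in wild type co-cultures. The arrays overlapped through wild type replicate 1, and the difference of -0.29 log2 did not pass (limma adjusted p = 0.153). Without that array it was -0.46 log2 and passed (0.0207). On 1432495_at the difference was -0.28 log2 (0.219).

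Norrin-expressing HEK293 cells brought the question of a response to the ligand. In Fz4-/- cells no SoxF probe set passed between Norrin and control co-cultures, where 0.180% of all probe sets did, 0.0910% as higher and 0.0888% as lower, and none of the 5 had an unadjusted p under 0.05. Sox17 on 1429177_x_at read 1.95, 1.79 and 1.82 log2 with Norrin cells, against 1.97, 1.92 and 1.76 log2 with control cells, a difference of -0.03 log2 (95% interval -0.29 to 0.23, limma adjusted p = 0.986). On 1421657_a_at the values were 3.63, 3.42 and 3.31 log2 with Norrin cells, against 3.60, 3.41 and 3.70 log2 with control cells. The arrays of these groups overlapped on both Sox17 probe sets. Sox18 read 8.78, 9.08 and 9.0 log2 with Norrin cells, against 8.89, 8.80 and 8.80 log2 with control cells (0.12 log2, 95% interval -0.26 to 0.51, limma adjusted p = 0.944). Sox7 on 1416564_at read 6.96, 7.01 and 7.11 log2 with Norrin cells, against 7.26, 7.19 and 7.17 log2 with control cells, and its difference of -0.18 log2 did not pass although the arrays did not overlap (0.875). None of the 16 endothelial markers passed in Fz4-/- by limma, while 7 had an unadjusted p under 0.05, and their median was 0.27 log2.

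In wild type cells 5.81% of probe sets passed between Norrin and control co-cultures, 3.63% as higher and 2.18% as lower, and 2 of the 5 SoxF probe sets rose. Sox17 on 1429177_x_at read 3.53, 3.54 and 3.14 log2 with Norrin cells, against 2.22, 1.92 and 2.05 log2 with control cells, with no overlap. It rose by 1.34 ± 0.12 log2 (limma adjusted p = 4.21e-06). It ranked between the percentiles 42.8 and 52.0 of the arrays with Norrin cells, against 0.89 and 9.26 with control cells. The control arrays are at the low end of all values, so the size of the rise is less sure than its direction and no fold is given.

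The second Sox17 probe set did not pass in wild type. On 1421657_a_at wild type co-cultures read 4.39, 4.87 and 4.71 log2 with Norrin cells, against 3.90, 4.53 and 4.62 log2 with control cells. The arrays overlapped, and the difference was 0.31 ± 0.17 log2 (95% interval -0.05 to 0.68, limma adjusted p = 0.397). Whether the 2 probe sets differed from each other was not tested.

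Sox18 read 8.98, 9.42 and 9.33 log2 in wild type cells with Norrin HEK293 cells, against 7.78, 8.60 and 8.60 log2 with control cells. It rose by 0.92 ± 0.18 log2, or 1.89-fold (limma adjusted p = 0.00485), with no overlap of the arrays. The call was lost when only these 6 arrays were fitted (0.0788) and when replicates 2 and 3 were averaged (0.0765). Sox7 did not pass on either probe set, with 0.24 log2 on 1416564_at (limma adjusted p = 0.527) and -0.01 log2 on 1432495_at (0.993).

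Endothelial markers rose together with Sox17 and Sox18 in the wild type co-cultures. Of the 16, 14 passed as higher with Norrin cells and none as lower, with a median of 0.93 log2 beside -0.02 log2 over all genes. Their mean level was 7.46 to 7.86 log2 with Norrin cells, against 6.52 to 6.82 log2 with control cells, and their summed level 12.2 to 12.6 log2 with Norrin cells, against 11.2 to 11.6 log2 with control cells. Clec14a, an endothelial surface protein, was at 2.13 log2 and Kdr, the main VEGF receptor, at 0.53 log2. Measured against the mean of these markers, an alternative chosen after seeing the data, Sox17 on 1429177_x_at was at 0.34 log2 (limma adjusted p = 0.0965) and Sox18 at -0.09 log2 (0.567). On that scale Sox7 fell by 0.77 log2 on 1416564_at (4.31e-05) and Sox17 by 0.69 log2 on 1421657_a_at (0.000485). The fit on that scale called 98.1% of all probe sets in this comparison.

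The difference between the responses was tested directly. The Norrin response of Sox17 on 1429177_x_at differed by -1.37 ± 0.18 log2 (SE, Fz4-/- minus wild type, limma adjusted p = 0.000584). In that test 1.17% of probe sets passed, 0.719% with a lower and 0.451% with a higher response in Fz4-/-. Endothelial markers moved with it: 5 of 16 passed with a lower response in Fz4-/- and none with a higher one, 11 had an unadjusted p under 0.05, and their median was -0.70 log2 beside -0.0048 log2 over all genes. Their part in the Sox17 result was not tested. That of Sox18 differed by -0.79 ± 0.26 log2 and did not pass over all probe sets (limma adjusted p = 0.216). Sox17 on 1421657_a_at differed by -0.43 log2 (0.635), Sox7 on 1416564_at by -0.42 log2 (0.608) and on 1432495_at by 0.03 log2 (0.988). Fz4-/- and wild type co-cultures lie in different array sets, but each response was taken within a set. On 1429177_x_at the Fz4-/- co-cultures lay between the percentiles 1.65 and 6.73 of the arrays, near the lowest values. For Sox17 on that probe set, an absent response in Fz4-/- therefore cannot be told from one too low to read.

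**Figure D3:**
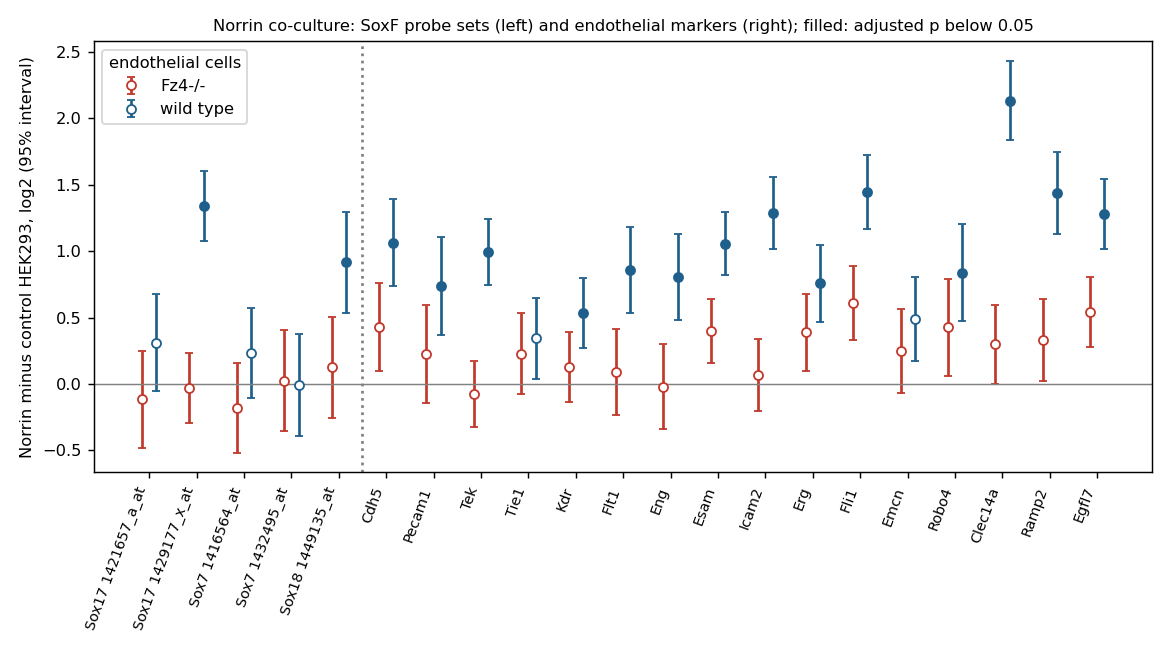
Difference Norrin HEK293 minus control HEK293 co-culture in log2 with its 95% interval (vertical axis) for the SoxF probe sets, left of the dotted line, and 16 endothelial markers. Fz4-/- cells are red and wild type cells blue, and filled points passed an adjusted p of 0.05. In wild type Sox17 1429177_x_at lies at 1.34 and Sox18 at 0.92, among 14 filled endothelial markers, while no Fz4-/- point is filled.

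With Norrin HEK293 cells the genotypes were further apart than with control cells for Sox17 on 1429177_x_at, as the same test shows. In that culture 45.8% of probe sets passed between the genotypes, 35.6% lower and 10.2% higher in Fz4-/-. Sox17 fell in Fz4-/- by 1.55 ± 0.12 log2 on 1429177_x_at (limma adjusted p = 7.32e-08, -1.34 log2 with centred arrays) and by 1.21 ± 0.17 log2 on 1421657_a_at (3.91e-05, -1.0 log2 with centred arrays). Sox7 fell as well on 1416564_at. It read 6.96, 7.01 and 7.11 log2 in Fz4-/- co-cultures with Norrin cells, against 7.35, 8.01 and 7.83 log2 in wild type ones, a difference of -0.70 ± 0.16 log2 (limma adjusted p = 0.00216, -0.49 log2 with centred arrays at 0.0354). Sox18 did not pass (-0.29 log2, 0.203), nor did Sox7 on 1432495_at (-0.25 log2, 0.276). These comparisons share arrays with the Norrin responses above.

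Matrigel is a basement membrane extract on which endothelial cells form cords. Between Matrigel and gelatin, Sox18 passed in wild type, and the second Sox7 probe set passed in both genotypes. The Matrigel cultures had also been starved in low serum, and the labels do not say whether the gelatin cultures were. The part of starvation in the differences between Matrigel and gelatin was not tested. In Fz4-/- 20.2% of probe sets passed between Matrigel and gelatin, 9.17% as higher and 11.0% as lower, and in wild type 18.0% passed, 7.64% as higher and 10.4% as lower. In Fz4-/- the difference of Sox18 was 0.67 ± 0.23 log2 with no overlap (limma adjusted p = 0.0562), and it passed with the replicate number as a block (0.00406). Sox18 rose in wild type by 0.87 ± 0.23 log2, or 1.82-fold (95% interval 0.37 to 1.36 log2, limma adjusted p = 0.0217), although replicate 1 on gelatin, at 10.92 log2, lay above replicate 3 on Matrigel, at 10.90 log2. The call was lost without wild type Matrigel replicate 1 (0.64 log2, 0.0695) or 2 (0.90 log2, 0.0523) and without wild type gelatin replicate 2 (0.71 log2, 0.0844) or 3 (0.78 log2, 0.0768).

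Sox7 on 1432495_at read 5.68, 6.17 and 5.71 log2 in Fz4-/- cells on Matrigel, against 5.55, 5.23 and 5.24 log2 on gelatin. It rose by 0.51 ± 0.16 log2 in Fz4-/- (limma adjusted p = 0.0449) and by 0.62 ± 0.16 log2 in wild type (0.0216). Both calls were close to the threshold. The call in Fz4-/- was lost without Fz4-/- Matrigel replicate 2 (0.35 log2, 0.158) or 3 (0.0563) and Fz4-/- gelatin replicate 2 (0.135) or 3 (0.132), among others. The call in wild type was lost without wild type Matrigel replicate 2 (0.0850) or 3 (0.0775) and wild type gelatin replicate 2 (0.0682) or 3 (0.0653). The other Sox7 probe set did not follow, at 0.05 log2 in Fz4-/- (0.928) and 0.18 log2 in wild type (0.717). Without replicate 1 of both cultures, 1416564_at passed in wild type at 0.33 log2 (0.0170).

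Sox17 did not pass between Matrigel and gelatin in either genotype. The difference on 1421657_a_at was 0.38 log2 in Fz4-/- (limma adjusted p = 0.161, 0.0287 with the replicate number as a block) and 0.08 log2 in wild type (0.795). On 1429177_x_at it was 0.48 ± 0.21 log2 in Fz4-/- (0.118) and 0.08 log2 in wild type (0.839). In Fz4-/- that value was 0.19 to 0.78 log2 when single arrays or replicate 1 were left out. It was 0.78 log2 and passed without Matrigel replicate 2, the lowest of its group (limma adjusted p = 0.00545). The Fz4-/- arrays of both cultures lay between the percentiles 3.89 and 28.1 on this probe set. No SoxF probe set differed in its Matrigel response between the genotypes past the threshold, where 0.0178% of all probe sets did, 0.00888% in each direction, and none had an unadjusted p under 0.05 by limma. Of the endothelial markers, 5 of 16 rose on Matrigel in Fz4-/- and 3 of 16 in wild type, beside 9.17% and 7.64% of all probe sets. Their mean level was 10.8 to 11.0 log2 on Matrigel against 10.6 log2 on gelatin in Fz4-/-, and 10.6 to 10.7 log2 on Matrigel against 10.4 log2 on gelatin in wild type.

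**Figure D4:**
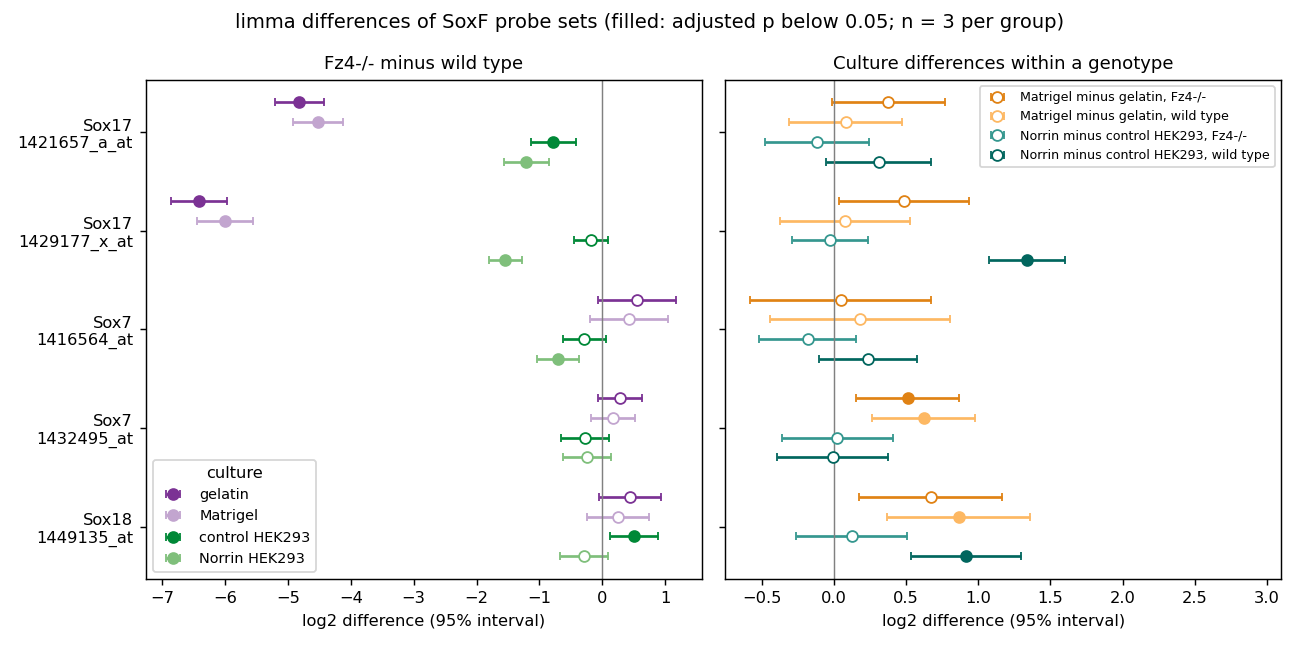
Log2 differences of the 5 SoxF probe sets with 95% intervals (horizontal axis), Fz4-/- minus wild type in the 4 cultures at left and culture differences within each genotype at right. Filled points passed an adjusted p of 0.05. Sox17 lies between -6.41 and -4.52 in single cultures at left, and at right the points furthest from 0 are wild type Sox17 1429177_x_at with Norrin cells, at 1.34, and wild type Sox18, at 0.92 with Norrin cells and 0.87 on Matrigel.

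Ordered by level within the single cultures, Sox17 on 1429177_x_at averaged 9.14 ± 0.01 log2 (SD, n = 3) in wild type on Matrigel, 9.06 ± 0.19 in wild type on gelatin, 3.13 ± 0.53 in Fz4-/- on Matrigel and 2.65 ± 0.14 in Fz4-/- on gelatin. The neighbours within a genotype overlapped, and those between genotypes did not. Sox18 averaged 11.54 ± 0.15 log2 in Fz4-/- on Matrigel, 11.29 ± 0.42 in wild type on Matrigel, 10.87 ± 0.17 in Fz4-/- on gelatin and 10.42 ± 0.44 in wild type on gelatin, where each pair of neighbours overlapped. Sox7 on 1416564_at averaged 10.40 ± 0.31 log2 in Fz4-/- on Matrigel, 10.36 ± 0.25 in Fz4-/- on gelatin, 9.98 ± 0.63 in wild type on Matrigel and 9.81 ± 0.37 in wild type on gelatin. Its neighbours also overlapped.

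Genes reported as SoxF targets formed a list of 14, chosen with earlier results of these data known. On gelatin 2 were higher and 4 lower in Fz4-/-, where 5.61% of all probe sets were higher and 5.08% lower, with a median of -0.22 log2 beside -0.0040 log2 over all genes. Dll4, an arterial Notch ligand, fell by 1.65 ± 0.25 log2 and Nrp1, a VEGF co-receptor, by 1.43 ± 0.21 log2. Vcam1, a leukocyte adhesion molecule, and Runx1, a transcription factor of blood formation, fell by 0.90 and 0.57 log2. Robo4, a guidance receptor of endothelium, rose by 0.71 ± 0.14 log2 and Tek, the angiopoietin receptor, by 0.67 ± 0.12 log2. On Matrigel again 2 were higher and 4 lower (5.52% and 5.88% of all probe sets), with Efnb2, an arterial ephrin, at -1.22 ± 0.17 log2, and a median of -0.05 log2 beside 0.02 log2 over all genes.

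Between Norrin and control co-cultures none of the 14 targets passed in Fz4-/- cells by limma, where 0.180% of all probe sets did. Of the 14, 3 had an unadjusted p under 0.05. In wild type cells 6 rose and 1 fell, where 3.63% of all probe sets were higher and 2.18% lower, with a median of 0.24 log2. Nrp1 rose by 2.17 ± 0.21 log2, Cdh5, the cadherin of endothelial junctions, by 1.06 ± 0.16 log2 and Tek by 0.99 ± 0.12 log2, while Runx1 fell by 0.56 log2. The response differed between the genotypes for Nrp1, at -1.95 ± 0.30 log2 (limma adjusted p = 0.00273), and Tek, at -1.07 ± 0.17 log2 (0.00278). In the co-cultures 6 were higher and 5 lower in Fz4-/- with control cells, and 5 were higher and 5 lower with Norrin cells. In these comparisons 45.5% of all probe sets passed with control cells and 45.8% with Norrin cells. Of the 14 targets, 4 are also endothelial markers of the list above (Cdh5, Tek, Kdr and Robo4). Dll4, Efnb2, Notch1 and Nrp1 are also on the arterial list below, and Prox1 is on the lymphatic list.

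SoxF proteins act with partner factors, and 8 such genes were read. On gelatin Rbpj, the DNA-binding factor of Notch signalling, rose in Fz4-/- by 1.06 ± 0.17 log2 and Erg, an endothelial ETS factor, by 0.51 ± 0.13 log2. None fell, where 5.61% of all probe sets were higher and 5.08% lower. On Matrigel Mef2c, which partners Sox18 in mouse endothelium, rose by 0.70 ± 0.10 log2 alone of the 8. There 11.4% of all probe sets passed in either direction, so 1 call among 8 is near that share. With Norrin against control HEK293 cells none passed in Fz4-/- by limma, where 0.180% of all probe sets did, while 4 had an unadjusted p under 0.05. In wild type, where 3.63% of all probe sets were higher and 14 of 16 endothelial markers rose, 4 partners rose, among them the ETS factor Fli1 by 1.45 ± 0.13 log2 and Ctnnb1, which encodes beta-catenin, by 0.48 ± 0.10 log2. Rbpj fell by 0.63 log2. Erg and Fli1 are also on the list of endothelial markers. The response differed between the genotypes for Fli1 alone, at -0.84 ± 0.18 log2 (limma adjusted p = 0.0348).

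Vessel subtypes were read because Sox17 has a role in arteries and Sox18 switches on Prox1 in the first lymphatic endothelial cells. Of 16 arterial genes 6 were lower and none higher in Fz4-/- on gelatin, beside 5.08% of all probe sets lower and 5.61% higher, among them the netrin receptor Unc5b at -1.67 ± 0.20 log2 and Epas1, a hypoxia-inducible factor, at -0.81 ± 0.12 log2. On Matrigel 7 were lower and 1 higher, beside 5.88% of all probe sets lower and 5.52% higher. Dll4, Efnb2, Notch1 and Nrp1 are on both this list and that of SoxF targets, so the falls counted in both are partly the same genes. Of 8 venous genes 4 were higher and none lower in both cultures, with Selp, the adhesion molecule P-selectin, at 3.30 ± 0.15 log2 and Nrp2 at 2.38 ± 0.26 log2 on gelatin. Emcn is on both the venous and the endothelial list. Of 5 measured lymphatic genes Lyve1, a hyaluronan receptor, rose in Fz4-/- by 2.50 ± 0.44 log2 on gelatin and the other 4, Prox1 included, did not pass. Of 9 endoderm genes, the other setting in which Sox17 is known, none passed on gelatin or Matrigel by limma, and 2 on gelatin and 1 on Matrigel had an unadjusted p under 0.05.

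Markers of other cell types were read on gelatin, where 5.61% of all probe sets were higher and 5.08% lower in Fz4-/-. Of 10 mural markers 2 were higher and none lower in Fz4-/-, with a summed level of 8.96 to 9.31 log2 in Fz4-/-, against 8.32 to 8.45 log2 in wild type. Of 7 fibroblast markers Thy1 was higher, by 4.32 log2, and Pdgfra lower, by 1.31 log2. Dcn, at 1.47 log2 (limma adjusted p = 0.219), and Col3a1, at -1.01 log2 (0.0995), did not pass, nor did Col1a1, Col1a2 and Lum. The sum of the 7 was 8.75 to 9.38 log2 in Fz4-/-, against 6.98 to 7.995 log2 in wild type. Thy1 averaged 8.29 log2 in Fz4-/- and 3.97 log2 in wild type, so the sum does not stand for the whole list. Of 8 markers of glia and neurons 1 was lower, and none of 6 leukocyte and 6 epithelial markers passed by limma or had an unadjusted p under 0.05. The part of these markers and of the vessel subtypes in the Sox17 difference was not tested.

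In the co-cultures such markers moved as well. With control HEK293 cells 1 of 7 fibroblast markers was higher and 5 lower in Fz4-/-, with a summed level of 6.27 to 6.39 log2 in Fz4-/-, against 8.82 to 9.07 log2 in wild type. Dcn, a matrix proteoglycan, was at -4.51 log2 and Col1a2, a collagen chain, at -3.58 log2. Of 10 mural markers 5 were lower, of 6 epithelial markers 4 were lower, and of 6 leukocyte markers 1 was higher and 1 lower, beside 34.8% of all probe sets lower. Between Norrin and control cells in wild type, Dcn fell by 2.91 log2 and Cd68, a macrophage marker, by 2.29 log2, while Col3a1 rose by 0.95 log2 and Col1a2 by 0.80 log2. The part of these markers in the Sox17 and Sox18 differences of the co-cultures was not tested.

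Some genes had a pattern over the 8 groups like that of a SoxF probe set, by Pearson's r over group means centred on the array medians. Candidates were probe sets with a single gene symbol whose SD over the groups was at least 50% of that of the SoxF probe set. This left 5105 for Sox17 1421657_a_at, 1143 for 1429177_x_at, 32160 for Sox18 and 30041 for Sox7 1416564_at. Among these candidates the closest to Sox17 were Ctsc, which encodes a lysosomal protease, and Zfp979 on 1421657_a_at (r = 0.99 each), and Hoxd8, a homeobox factor, and Epha4, an ephrin receptor, on 1429177_x_at (r = 0.98 each). Hoxd8 averaged 4.36 log2 in Fz4-/- and 10.69 log2 in wild type on gelatin. For Sox18 they were Hbp1 and Tbc1d23 (r = 0.96 each), and for Sox7 on 1416564_at Otud5 and 1810058I24Rik (r = 1.00 each). The points share culture and array set, so these values describe the 8 groups only. The 2 Sox17 probe sets had r = 0.97 with each other and -0.21 to 0.15 with those of Sox7 and Sox18. The 2 Sox7 probe sets had r = 0.56 with each other.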

How the data were processed

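Total RNA of 24 mouse retinal endothelial cultures was read on Affymetrix arrays with a biotin label. The authors deposited log2 probe set intensities. The submitters' processing notes name RMA without a version, and the arrays normalized in a common run are not given in the sources used here. For arrays, their number limits the precision. The 64 Affymetrix control probe sets among 45101 were dropped, and 45037 entered every test. By the platform annotation 34945 have a single gene symbol, 932 several and 9160 none. RefSeq gene positions served only to find the neighbours of the 3 SoxF genes, and no coordinates or sequences are printed.

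The model, fitted in R (version 4.3.3) by limma (version 3.58.1; files were read with data.table, version 1.17.8), had a mean per group. Single cultures and co-cultures, 12 arrays each, had separate fits with 8 residual degrees of freedom, empirical Bayes moderation and Benjamini-Hochberg adjustment over all probe sets of a comparison. An adjusted p below 0.05 passed. With 3 arrays against 3, the smallest exact two-sided permutation p of a single gene is 0.1. For a list gene with several probe sets, the one of highest mean over all arrays was read. Named are all SoxF probe sets, Fzd4, Ndp, up to 4 members of a list past the threshold in a comparison, and the 5 genes most like each SoxF probe set over the 8 group means, of which some are printed. The members and lists were chosen with earlier results of these data known. Equal replicate numbers were taken as pairs where the correlation of array deviations was over 0.1 in every pair. This held in the single cultures (0.20 to 0.64) and between the genotypes with Norrin cells (0.12 to 0.33). In the single cultures 2 to 5 of 6 arrays per comparison correlated best with their own number. The rule therefore does not establish that replicates 2 and 3 were paired by number. The fit was tested on simulated data. Figures were drawn with matplotlib 3.10.9, and descriptive values computed with numpy 2.4.6 and pandas 2.3.3 under Python 3.11.15.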

Additional observations from a re-analysis of the deposited data

Results flagged for a closer look

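The Norrin response of Sox17 on 1429177_x_at differed between the genotypes by -1.37 log2 (Fz4-/- minus wild type, 95% interval -1.74 to -1.0), by limma's test of the difference itself. The response was -0.03 log2 in Fz4-/- and 1.34 log2 in wild type cells. Norrin arrays were higher in all 3 equally numbered pairs in wild type and in 1 of 3 in Fz4-/-. Between Norrin and control cells, however, equal numbers did not meet the rule for pairs. The difference of responses was -1.50 to -1.30 log2 when single arrays or replicate numbers were left out. Relative to the endothelial marker mean it was -0.63 log2 (limma adjusted p = 0.0410), a scale on which 78.5% of all probe sets passed. In Fz4-/- co-cultures the probe set lay between the percentiles 1.65 and 6.73 of the arrays. An absent response there cannot be told from one too low to read.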

How the results depend on the processing

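The 5 SoxF probe sets in 10 comparisons were recomputed under 1115 alternatives in all, of which 999 kept direction and side of the threshold, 49 turned the direction, 38 lost a call and 29 gained one. Sox17 kept its calls between the genotypes on both probe sets in single cultures and with Norrin cells under all alternatives run, at -6.62 to -6.35 log2 on 1429177_x_at and -5.03 to -4.71 log2 on 1421657_a_at on gelatin. All values below are log2 differences, and the cause of a change was not tested.

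With quantile normalization within the fit, Sox17 1429177_x_at was 0.017 between the genotypes with control cells, and on Matrigel against gelatin in Fz4-/- Sox7 1432495_at was 0.47 and no longer passed while Sox18 was 0.83 and passed. With median centring, Sox17 1429177_x_at was 0.013 between the genotypes with control cells and 0.0051 for Norrin in Fz4-/-, Sox7 1416564_at was -0.0086 and 1432495_at 0.46 on Matrigel in Fz4-/-, and 1432495_at was 0.0077 for Norrin in wild type. Sox7 1432495_at on Matrigel in Fz4-/-, at 0.51, also missed the threshold among brighter probe sets only, with all 24 arrays in 1 fit and with only the arrays compared. The last 2 settings also ended the call of Sox18 between the genotypes with control cells, at 0.50, and gave one to Sox18 on Matrigel in Fz4-/-, at 0.67. With all 24 arrays Sox17 1429177_x_at passed there at 0.48. With only the arrays compared, Sox18 in wild type missed the threshold at 0.87 on Matrigel and 0.92 for Norrin.

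With the replicate number as a block, Sox7 1416564_at passed between the genotypes at 0.55 on gelatin and 0.42 on Matrigel, and Sox18 at 0.45 on gelatin. On Matrigel against gelatin in Fz4-/-, Sox17 1421657_a_at passed at 0.38 and Sox18 at 0.67. These comparisons met the correlation rule for equal numbers, which does not establish pairing. The replicate block changed no other call. With replicates 2 and 3 averaged, the calls lost were those of Sox18 between the genotypes with control cells (0.66), on Matrigel in wild type (0.85) and for Norrin in wild type (0.99), and of Sox7 1432495_at on Matrigel in Fz4-/- (0.42) and wild type (0.51).

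Leaving out single arrays or replicate 1 gave these ranges where a call or direction changed. Between the genotypes, Sox7 1416564_at was 0.34 to 0.69 on gelatin and -0.49 to -0.19 with control cells, 1432495_at -0.47 to -0.085 with control and -0.52 to -0.13 with Norrin cells, and Sox18 0.29 to 0.69 on gelatin, 0.20 to 0.64 with control and -0.42 to -0.20 with Norrin cells. On Matrigel in Fz4-/-, Sox7 was -0.094 to 0.22 on 1416564_at and 0.35 to 0.70 on 1432495_at, Sox17 1429177_x_at 0.19 to 0.78 and Sox18 0.59 to 0.77. On Matrigel in wild type, Sox7 was -0.035 to 0.54 and 0.53 to 0.84, Sox17 -0.045 to 0.23 on 1421657_a_at and -0.037 to 0.14 on 1429177_x_at, and Sox18 0.64 to 1.12. For Norrin, Sox17 1429177_x_at was -0.090 to 0.016 in Fz4-/- and Sox7 1432495_at -0.15 to 0.11 in Fz4-/-, -0.20 to 0.28 in wild type and -0.43 to 0.23 for the difference of responses. The Matrigel responses differed by -0.50 to 0.082 for Sox7 1416564_at and -0.44 to 0.029 for Sox18.

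Levels relative to the endothelial marker mean were an alternative added after seeing the data. Between the genotypes they gave -0.11 for Sox7 1432495_at and -0.029 for Sox18 on Matrigel, and with control cells -1.19 and -1.18 for Sox7 1416564_at and 1432495_at, -1.09 for Sox17 1429177_x_at and -0.40 for Sox18. With Norrin cells Sox18 was -0.46. On Matrigel in Fz4-/-, Sox7 was -0.25 on 1416564_at and 0.21 on 1432495_at. In wild type it was -0.053 and 0.39, and Sox17 -0.15 on 1421657_a_at and -0.16 on 1429177_x_at. For Norrin in Fz4-/-, Sox7 1432495_at was -0.24 and Sox18 -0.14. For Norrin in wild type, Sox7 was -0.77 on 1416564_at and -1.01 on 1432495_at, Sox17 -0.69 on 1421657_a_at and 0.34 on 1429177_x_at, and Sox18 -0.089. The differences of Norrin responses were 0.32 and 0.77 for Sox7 1416564_at and 1432495_at and 0.31 for Sox17 1421657_a_at.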
